A study of Rattus norvegicus with 2 samples.

Results

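Splicing factors and related RNA-binding proteins were followed in rat liver as the genes whose symbol begins with Srsf or Sfrs, Hnrnp or Hnrp, Sf3a or Sf3b, Snrp, U2af, Rbm with a number, Prpf, Celf or Ptbp. The rule found 103 genes, represented by 177 probe sets, among the 14217 genes that the array's annotation ties to probe sets of a single gene. Liver RNA of male Wistar rats aged 2 months was hybridized to Affymetrix rat arrays. One array held liver of rats fasted for 18 h, and the other held liver of rats fasted for 18 h and killed 4 h after a bolus of 5 ml of olive oil. The fasted group received no fat meal, and nothing in the labels says how many livers contributed to an array. With 1 array per group no difference below has a replicate check, a p-value or a standard deviation over animals, and each compares these 2 arrays.

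Messenger RNA is made as a long precursor from which introns are removed by the spliceosome. This machine consists of small nuclear ribonucleoproteins (snRNPs), most of them a short RNA held in a ring of Sm proteins, and many further proteins. SR proteins bind exons and promote their inclusion, whereas many heterogeneous nuclear ribonucleoproteins (hnRNPs) bind introns or exons and repress it, so that the balance of both groups sets which exons a liver transcript keeps. The activity of SR proteins is controlled chiefly by phosphorylation of the serines in their tails, which an expression array does not measure.

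The rule gave 7 classes, which are described by role. The bases just before the RefSeq start site are shown for a hand-picked set of members. These are 3 SR genes, of which Srsf1 was inside 1.5-fold, and the adjacent pair Rbm14 and Rbm4b. U2af1 and Hnrnpdl, each the only gene of its class past 1.5-fold, are also shown. Snrpf, likewise the only gene of its class past 1.5-fold, is not shown. The 140 bases before the start on the gene's strand are from RefSeq's GRCr8 assembly, and capitals mark matches, on either strand, to 1 of 8 motifs. The motifs were the CCAAT box (CCAAT), the GC box (GGGCGG), the ETS site (CCGGAAG), the cAMP response element (TGACGTCA), the E-box (CACGTG), the NRF1 half-site (TGCGCA), the glucocorticoid response half-site (AGAACA) and the TATA box (TATAAA). Srsf4 lies at chr5:149345398-149345537 (+), Srsf2 at chr10:102554142-102554281 (-), Srsf1 at chr10:73336358-73336497 (+) and U2af1 at chr20:9755095-9755234 (-). Hnrnpdl lies at chr14:9861576-9861715 (+), Rbm14 at chr1:211535066-211535205 (-) and Rbm4b at chr1:211477197-211477336 (+).
Srsf4: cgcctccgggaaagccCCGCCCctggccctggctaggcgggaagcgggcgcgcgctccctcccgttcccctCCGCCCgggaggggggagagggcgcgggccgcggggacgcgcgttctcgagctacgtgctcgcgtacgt
Srsf2: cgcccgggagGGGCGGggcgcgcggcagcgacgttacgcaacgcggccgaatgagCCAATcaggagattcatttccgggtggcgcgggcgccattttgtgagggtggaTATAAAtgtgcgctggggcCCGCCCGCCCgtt
Srsf1: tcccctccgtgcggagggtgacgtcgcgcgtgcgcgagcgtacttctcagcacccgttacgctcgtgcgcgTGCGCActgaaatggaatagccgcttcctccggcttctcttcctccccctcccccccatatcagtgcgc
U2af1: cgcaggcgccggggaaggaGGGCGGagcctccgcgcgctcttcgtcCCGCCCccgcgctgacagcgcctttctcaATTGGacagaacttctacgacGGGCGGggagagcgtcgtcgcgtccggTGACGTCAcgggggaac
Hnrnpdl: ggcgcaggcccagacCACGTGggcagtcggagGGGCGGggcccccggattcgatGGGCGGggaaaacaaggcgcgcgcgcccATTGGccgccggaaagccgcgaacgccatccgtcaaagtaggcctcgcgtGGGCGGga
Rbm14: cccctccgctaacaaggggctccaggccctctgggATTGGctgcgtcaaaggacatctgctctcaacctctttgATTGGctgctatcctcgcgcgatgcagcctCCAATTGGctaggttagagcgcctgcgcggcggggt
Rbm4b: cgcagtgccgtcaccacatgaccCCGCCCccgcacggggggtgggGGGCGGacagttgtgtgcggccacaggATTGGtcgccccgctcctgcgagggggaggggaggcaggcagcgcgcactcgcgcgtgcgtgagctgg

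These stretches differ from each other in the motifs they hold. Srsf4 has GC boxes only, at -124 and -69 from the start site. Srsf2 has a TATA box at -32 and a CCAAT box at -85, while Srsf1 has an NRF1 half-site at -69. U2af1 carries a cAMP response element at -17. Rbm14 has 4 CCAAT matches, 2 of which, at -36 and -33, overlap. Over the whole window of 250 bases before to 50 after the start, 91 of the 103 members had a RefSeq promoter. The CCAAT box was found in 50.5% of them, against 38.3% of 7767 measured genes and 37.7% of all 27457 promoters. The NRF1 half-site was found in 20.9% of the members' promoters, 14.1% of those of measured genes and 7.68% of all. The GC box, with 53.8%, 63.0% and 34.9%, was less frequent in members than in measured genes and more frequent than in all promoters. The ETS site stood at 25.3%, 19.4% and 9.22%. The E-box was found in 10 of the 91, against 9.89% and 6.65%. The cAMP response element was at 2.20%, 3.31% and 1.91%, and the TATA box at 6.59%, 6.90% and 14.3%. The glucocorticoid response half-site was at 13.2%, 12.2% and 20.1%, so that the members were near the measured genes in this motif. A match is a description of letters and not a binding site.

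A gene was called measured when the mean log2 signal of its brightest probe set reached the median of all probe sets, equal to a signal of 41.4. By this filter 90 of the 103 members were measured, 87.4%, against 64.8% of all genes. Only 1 of the 90, Rbm20, was above that signal on one array and below it on the other. Albumin and the other 5 hepatocyte markers found on the array were bright on both arrays and within 1.5-fold. The summed signal of markers came to 5834 (fasted) and 5766 (olive oil) for 6 genes of Kupffer cells and monocytes, and 4197 and 4676 for 6 genes of endothelial cells. For 7 genes of stellate cells it was 2529 and 2590, for 3 of red blood cells 9353 and 9062, and for 4 of bile duct cells 285.9 and 218.4. For 6 lymphocyte genes it was 249.5 and 183.1, with 5 of the 6 under the filter and Cd3d and Cd79b at or below the floor of 12.8 on both arrays. Of all these markers of other cells that were measured, 3 passed 1.5-fold, Lyve1 and Acta2 at 0.61 and 0.67 on the log2 scale and Lrat at -0.59. Across the 25 spiked poly-A control probe sets above the floor, 21 were lower in the olive oil array, with a median log2 difference of -0.22, and the 3' to 5' ratio of beta-actin was 2.63 and 3.20. The part of cell make-up, RNA quality and labelling in the differences below was not tested, and in whole liver fewer cells of a type and less RNA per cell cannot be told apart.

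As a family the splicing genes differed little in size between the arrays, but more of them were higher than lower after olive oil. Of 90 measured members, 61 were higher and 29 lower by any amount, so that 67.8% were higher, against 48.3% of all 9208 measured genes. The median log2 difference, olive oil minus fasted, was 0.11 over the members and -0.01 over all measured genes, and the middle 50% of the members lay between -0.07 and 0.40. At least 1.5-fold higher were 9 members, or 10.0% of 90, where 9.46% of all measured genes were, and at least 1.5-fold lower were 3, or 3.33%, where 10.1% of all were. Past 2-fold there was 1 member higher and none lower, with 3.25% and 2.94% of all measured genes. The share past 1.5-fold upward was thus near the background and the share past it downward below it. Both splits depend on how the arrays are brought to a common level. Restricting both to the brighter genes above the 75th percentile left 69 members, of which 5, or 7.25%, were at least 1.5-fold higher and 0 lower, where 7.01% and 7.43% of all such genes were. With each array centred on its median, 51 members were higher and 39 lower, and 7 and 5 passed 1.5-fold. All measured genes shifted with them, to 40.9% higher, and the members' median stood 0.13 above that of all genes in either case.

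SR proteins had the highest class median. Of 11 genes of the class 8 were measured, 6 of them higher and 2 lower, with a median log2 difference of 0.42. By any amount 75% were higher, against 48.3% of all measured genes. At least 1.5-fold higher were 2, or 25% of only 8 genes, where 9.46% of all measured genes were. Srsf4, an SR protein with one of the longest arginine-serine tails, gave a signal of 849.4 when fasted and 1728 after olive oil. It was the member with the largest difference, 2.03-fold higher, on its only probe set. Srsf2, also called SC35, a marker of nuclear speckles, went from 1540 to 2392, 1.55-fold higher, and from 413.3 to 538.7 on a second probe set, a log2 difference of 0.38. Centred on array medians, or averaged over both probe sets, Srsf2 fell inside 1.5-fold.

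Most other SR genes also had higher signals, by smaller amounts. Srsf5, first described as a gene induced in regenerating liver, stood at 1252 and 1806, a log2 difference of 0.53. Srsf1, also called ASF or SF2, which helps to choose the 5' splice site, stood at 812 and 1112, a difference of 0.45, and its dimmer probe set went from 326.4 to 685.5, a difference of 1.07. Both probe sets of Srsf1 therefore pointed the same way but differed in size by 0.62. Their mean, 0.76, was past 1.5-fold. Srsf6, an activator of exon inclusion, had 3 measured probe sets with log2 differences of 0.25 to 0.40. Srsf11, added with Srsf9 to complete the class after their values were seen, had 0.28 and 0.37 on 2 probe sets.

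The exceptions were Srsf9 and Srsf10. Srsf9 went from 356.5 to 254.2, 1.40-fold lower. Srsf10, which represses splicing once it is dephosphorylated, stood at 103.2 and 93.3, with log2 differences of -0.15 and -0.20 on its measured probe sets. All 5 SR genes with more than 1 measured probe set had probe sets of one sign, and 11 of the class's 14 measured probe sets were higher. Srsf3 and Srsf7 were dim on the probe sets tied to a single gene, at 10.3 and 18.2 and at 34.1 and 47.3, and were not measured. The third unmeasured entry of the class, Srsf7-ps4, is a pseudogene by its symbol.

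**Figure D1:**
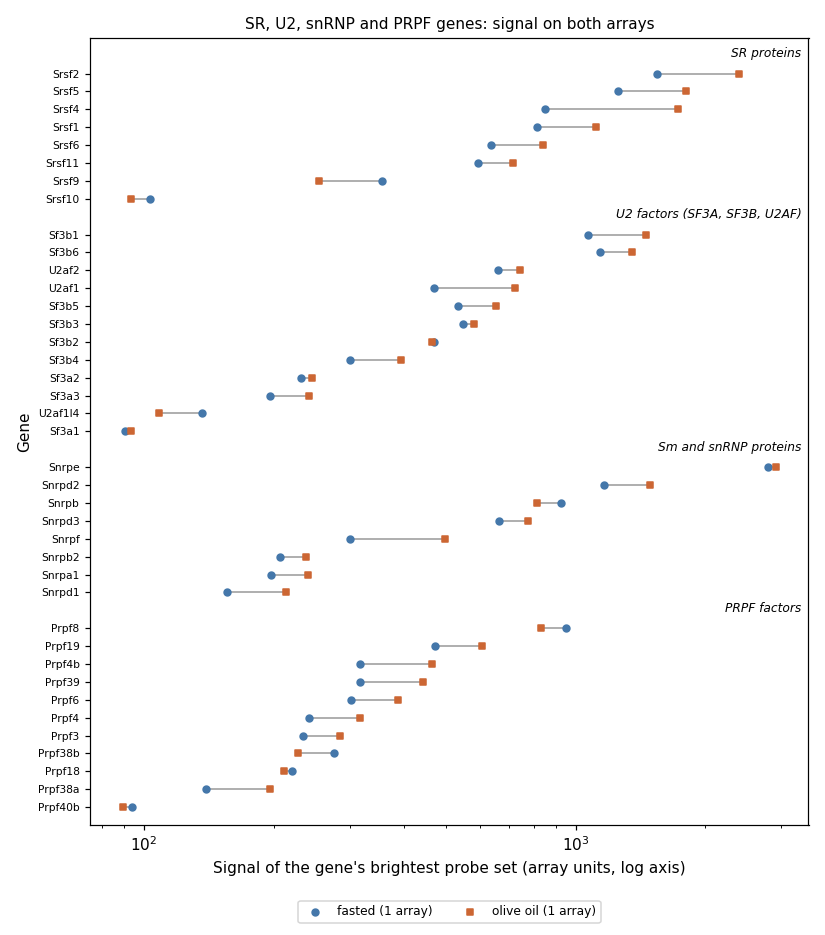
Signal of the brightest probe set of each of the 39 measured SR, U2, snRNP and PRPF genes (log axis, array units) in the fasted array (circles) and the olive oil array (squares), 1 array each. Srsf4, from 849.4 to 1728, has the widest gap, and most squares lie to the right of their circles.

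Factors that choose the 3' splice site and branch point were mostly higher by small amounts. All 12 genes of the SF3A, SF3B and U2AF class were measured, 10 higher and 2 lower, with a median log2 difference of 0.21. By any amount 83.3% were higher, against 48.3% of all measured genes. At least 1.5-fold higher were 8.33% of the class, near the 9.46% of all measured genes. U2af1, the small U2AF subunit that reads the AG at the end of the intron, went from 470.8 to 725.5, 1.54-fold higher and the only member of the class past 1.5-fold. Centred on array medians it had a log2 difference of 0.55, just inside. U2af2, the large subunit that binds the pyrimidine tract, stood at 661.9 and 744.7, a difference of 0.17. Its dimmer probe set went from 25.4 to 73.7, a difference of 1.54, the widest disagreement among measured probe sets of any member. Its remaining probe set, just under the filter, went the other way, from 52.0 to 22.2, a difference of -1.23. The mean over the 2 measured probe sets of U2af2 was 0.85, past 1.5-fold.

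Sf3b1, which holds the branch point helix, stood at 1071 and 1453, a log2 difference of 0.44. Its other measured probe sets gave 0.59 and, on a dim one, -0.20, so that the brighter pair was higher and the dim probe set was not. Sf3b6, which sits beside the branch point adenosine, stood at 1141 and 1349, a difference of 0.24. Sf3b2 and U2af1l4, a relative of U2af1, were the members on the lower side, at -0.01 and -0.34, and were added once their values were known. A dimmer probe set of Sf3b2 went the other way, from 102.2 to 138.7, a difference of 0.44. The other 6 genes of the class, Sf3a1, Sf3a2, Sf3a3, Sf3b3, Sf3b4 and Sf3b5, had differences between 0.05 and 0.39 on their brightest probe sets. Sf3a1 had 0.53 on a dim one.

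Sm proteins and snRNP-specific proteins were higher in 7 of 8 measured genes, with a median log2 difference of 0.26. By any amount 87.5% were higher, against 48.3% of all measured genes. At least 1.5-fold higher were 12.5% of only 8 genes, where 9.46% of all measured genes were. Snrpf, an Sm ring subunit, went from 300.4 to 498.2, 1.66-fold higher, and was the only gene of the class past 1.5-fold. The other ring subunits differed less. Snrpe stood at 2788 and 2911, Snrpd2 at 1166 and 1484 and Snrpd3 at 665.8 and 777.2, with log2 differences of 0.06, 0.35 and 0.22. Centred on array medians, Snrpe turned to -0.01. Snrpd1 had 0.45 and 0.32 on 2 probe sets. Snrpb, at 926.2 and 815.2, was the member on the lower side, with a difference of -0.18. The U2-specific proteins Snrpa1 and Snrpb2 had 0.29 and 0.20. Snrpa, of the U1 snRNP, and the imprinted gene Snrpn, mainly active in brain, were dim and not measured, at 49.6 and 31.3 and at 27.2 and 6.4. Snrpg, the last ring subunit, is tied to probe sets of several genes and was not analysed here. Snrpd1, Snrpd3, Snrpb, Snrpa1, Snrpb2 and Snrpa were named after their values were seen, to complete the ring and its partners.

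Many PRPF factors act in the tri-snRNP or at the catalytic steps. The class split into genes that were higher by a similar amount and genes near 0 or lower. All 11 were measured, 7 higher and 4 lower, none past 1.5-fold, with a median log2 difference of 0.36. Prpf8, the scaffold at the catalytic centre, stood at 951.1 and 829.6, a difference of -0.20. Prpf19, the ubiquitin ligase of the complex that activates the spliceosome, stood at 471.7 and 606.7, a difference of 0.36. Of the others, seen before they were named, Prpf4b, a kinase of the tri-snRNP, was nearest to 1.5-fold at 316.9 and 464.1, 1.46-fold higher. Its 3 further probe sets gave 0.22, 0.22 and -0.09. Prpf38a, Prpf39, Prpf4, Prpf6 and Prpf3 had differences between 0.29 and 0.50, the U4/U6 proteins Prpf3 and Prpf4 being 0.29 and 0.40. Prpf38b had -0.28 and -0.24 on 2 probe sets, while Prpf40b and Prpf18 were at -0.07 and -0.05.

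**Figure D2:**
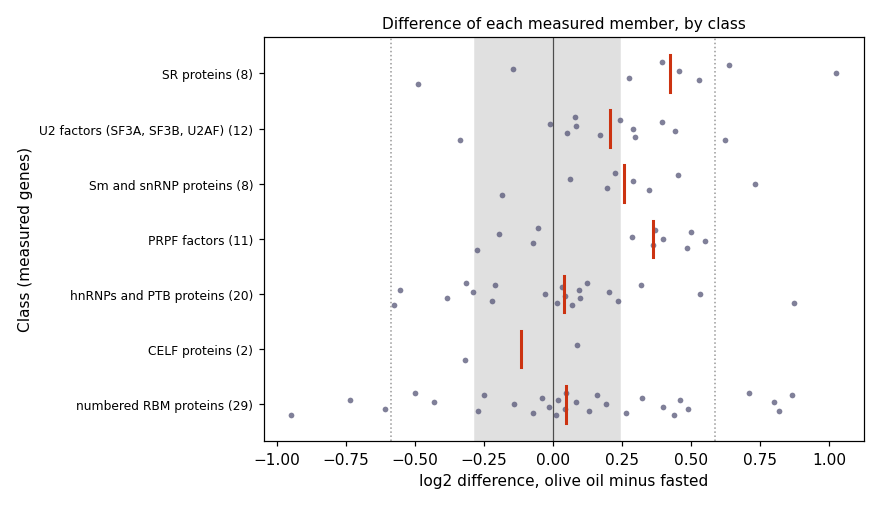
Log2 difference, olive oil minus fasted, of each of the 90 measured members by class (points), with the class median (red bar), 1.5-fold either way (dotted lines) and the middle 50% of all 9208 measured genes (grey band, -0.28 to 0.24). The medians of the SR, PRPF and snRNP classes, 0.42, 0.36 and 0.26, lie right of the band, and those of the hnRNP and RBM classes, 0.04 and 0.05, lie near 0.

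The hnRNPs went both ways around a median near 0, and the difference from the classes above could not be tested with these arrays. All 20 hnRNP and PTB genes were measured, 12 higher and 8 lower, with a median log2 difference of 0.04 and the middle 50% between -0.24 and 0.14. By any amount 60% were higher, against 48.3% of all measured genes. At least 1.5-fold higher were 5% of the class, where 9.46% of all measured genes were. The median turned to -0.03 with the arrays centred on their medians. Only Hnrnpdl passed 1.5-fold. This relative of Hnrnpd, known to shuttle between nucleus and cytoplasm, went from 471.3 to 863.3, 1.83-fold higher, and its second probe set went from 138.3 to 254.5. The probe sets agreed closely, at 0.87 and 0.88 on the log2 scale. Hnrnpd, or AUF1, which binds AU-rich elements of short-lived messengers, is the next coding gene to Hnrnpdl on chromosome 14 and stood at 276.5 and 399.4, a difference of 0.53. Both neighbours were therefore on the higher side.

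The most familiar repressors lay near 0 on their brightest probe sets. Hnrnpa1, which silences exons, stood at 581.3 and 622.1, a log2 difference of 0.10, with 0.25 and 0.53 on dimmer probe sets. Ptbp1, the pyrimidine tract binding protein, stood at 765 and 749.9, a difference of -0.03. The brightest probe sets of the class were those of Hnrnpab, at 2847 and 3353, and of Hnrnpa3, at 2677 and 2296. The 5 probe sets of Hnrnpa3 ranged from -0.22 to 0.19. Members named after their values were seen include Hnrnpm, just short of 1.5-fold at 377.6 and 253.4, 1.49-fold lower, and the neuronal relative Ptbp2, at 61.8 and 42.1, 1.47-fold lower. Hnrnpa2b1 was at -0.38 on its brightest probe set, but its 4 probe sets ran up to 0.59. Hnrnpu, Hnrnph1, Hnrnpl, Hnrnpr, Hnrnpa0 and Ptbp3 all had differences between 0.01 and 0.12 on their brightest probe sets. A dim second probe set of Ptbp3 went from 52.5 to 35.6, a difference of -0.56. Dimmer probe sets of Hnrnpu gave 0.15 and -0.04. Hnrnpc and Hnrnpf were at 0.20 and 0.32, and Hnrnph3, Hnrnpll and Hnrnpul1 at -0.21, -0.29 and -0.31, with 0.04 on a dimmer probe set of Hnrnph3. Hnrnpk is tied to probe sets shared with a pseudogene and was not analysed here.

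Of the CELF genes, regulators of splicing and messenger decay, only 2 of 5 were measured. Celf1 stood at 1311 and 1050, 1.25-fold lower, and all 5 of its probe sets were on the lower side, from -0.53 to -0.02. Celf2 stood at 190.9 and 202.9, a log2 difference of 0.09. Celf3, Celf4 and Celf5 were below the filter on both arrays, with no signal above 18.5.

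**Figure D3:**
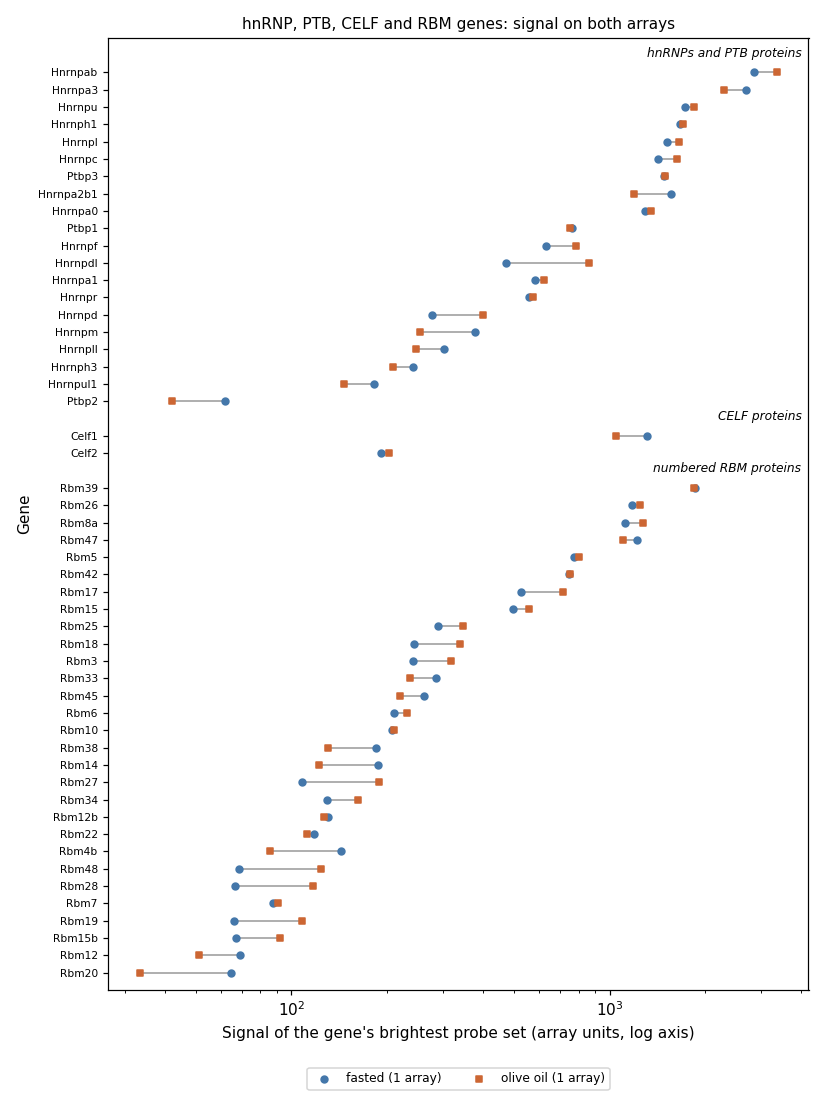
Signal of the brightest probe set of each of the 51 measured hnRNP, PTB, CELF and RBM genes (log axis, array units) in the fasted array (circles) and the olive oil array (squares), 1 array each. Hnrnpdl, from 471.3 to 863.3, has the widest gap among hnRNPs, whose squares lie on either side of their circles, and Rbm20, at 64.6 and 33.5, has the widest among RBM genes.

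The numbered RBM genes, a set defined by an RNA recognition domain and not by one function, were the most spread. Of 34 genes 29 were measured, 18 higher and 11 lower, with a median log2 difference of 0.05, which turned to -0.03 with the arrays centred on their medians. By any amount 62.1% were higher, against 48.3% of all measured genes. At least 1.5-fold higher were 4, or 13.8% of 29, and at least 1.5-fold lower were 3, or 10.3%. The shares of all measured genes were 9.46% and 10.1%. Those higher had dim fasted signals, from 66.1 to 108.4. Rbm48, a factor of the minor spliceosome, went from 68.4 to 124.4, 1.82-fold higher. Rbm28 and Rbm19, nucleolar proteins of ribosome assembly, went from 66.5 to 117.2 and from 66.1 to 108.1, 1.76-fold and 1.64-fold higher. Rbm27 went from 108.4 to 188.5, 1.74-fold higher, and from 95.7 to 123.5 on a second probe set. Averaged over both it had a log2 difference of 0.58, just inside 1.5-fold.

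On the lower side were Rbm20, Rbm4b and Rbm14. Rbm20, known for splicing titin in heart muscle, went from 64.6 to 33.5, 1.93-fold lower, and came inside 1.5-fold, at -0.57 in place of -0.95, when the floor was set to the 50th percentile. Rbm4b went from 142.8 to 85.8, 1.66-fold lower. Rbm14, a coactivator found in paraspeckles, went from 186.9 to 122.6, 1.52-fold lower, and had -0.55 with an offset of 16 in place of the floor. Rbm14 and Rbm4b are adjacent on chromosome 1 when coding genes are ordered by start position, and were both lower. Whether the 2 genes overlap was not examined. Rbm4, next to Rbm4b, was dim on both arrays and not measured. The third adjacent pair, Rbm5 and Rbm6 on chromosome 8, splicing regulators added once their values were known, stood at 0.05 and 0.13 on the log2 scale.

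The probe sets of highest signal in the class belong to Rbm39 and Rbm26. Rbm39, a relative of U2AF, stood at 1862 and 1842 on its brightest probe set, a log2 difference of -0.02. Its other 4 probe sets were all higher, by 0.20 to 0.67, and the mean over all 5 was 0.33. Rbm26 stood at 1175 and 1246, a difference of 0.08. Rbm3, a cold-inducible protein, stood at 241.8 and 318.4, a difference of 0.40. Further members, named after their values were seen, have known roles in the liver or the spliceosome. Rbm47, a cofactor of apolipoprotein B messenger editing, stood at 1219 and 1106, with -0.14 and -0.07 on its probe sets. Rbm8a, a core protein of the exon junction complex, had 0.19, and 0.96 on a dim probe set. Rbm17, which takes part in 3' splice site choice, had 0.44 and 0.55.

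Probe sets of one gene repeat a measurement on the same RNA and arrays, so that their spread covers differences between probe sets only. It does not cover variation between rats or preparations. Whether probe sets of a gene differ through error or through the transcript forms they detect was not tested. Of the 90 measured members, 59 had 1 measured probe set and 31 had more. In 20 of these 31 genes, or 64.5%, all measured probe sets had one sign, about the share over all 2290 such genes, 63.2%. The pooled standard deviation of probe sets around their gene's mean was 0.28 on the log2 scale for members and 0.35 for all genes. No member had one measured probe set at least 1.5-fold higher and another measured one at least 1.5-fold lower. Of all 140 measured probe sets of the members, 94 were higher and 46 lower. Of the 12 genes past 1.5-fold, 9 rest on 1 measured probe set, and Srsf2, Hnrnpdl and Rbm27 have 2.

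**Figure D4:**
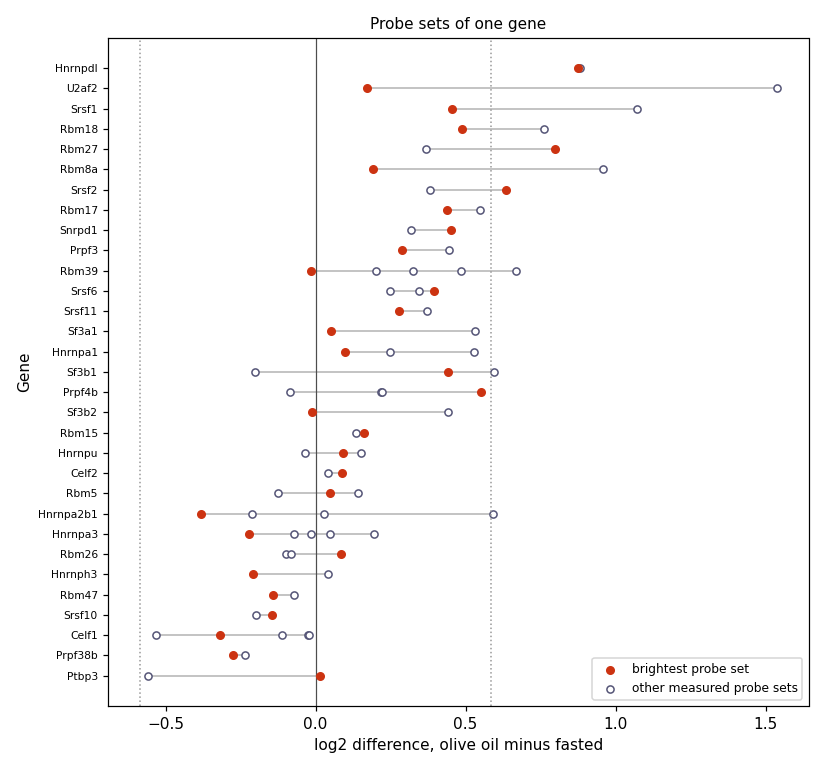
Log2 difference, olive oil minus fasted, of every measured probe set of the 31 members with more than 1 (filled red, the brightest; open, the others), with genes in order of their mean and dotted lines at 1.5-fold. Hnrnpdl's probe sets coincide near 0.87, U2af2's span from 0.17 to 1.54, and 11 genes have probe sets on both sides of 0.

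The rest of the RNA-processing machinery was described through 7 lists of 181 entries, of which 170 were found and 164 measured. As a whole, 106 were higher and 58 lower, so that 64.6% were higher against 48.3% of all measured genes, with a median log2 difference of 0.16. At least 1.5-fold higher were 11 and at least 1.5-fold lower were 4, shares of 6.71% and 2.44%, both below those of all measured genes. The medians of all 7 lists were above 0, from 0.10 to 0.19. For the kinases and phosphatases that act on SR proteins none of 9 passed 1.5-fold in either direction. Clk1, which phosphorylates SR proteins in the nucleus, stood at 1462 and 1886, a log2 difference of 0.37, and its relative Clk4 at 419.9 and 504.5, a difference of 0.26. Srpk1, the cytoplasmic SR kinase, stood at 94.9 and 94.0, with 0.37 on a dimmer probe set.

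No gene passed 1.5-fold among 10 LSm proteins, 19 genes of the exon junction complex and export or 18 of cleavage and polyadenylation. The median log2 differences of these lists were 0.18, 0.16 and 0.19. Of 16 helicases and GTPases 1 was past 1.5-fold, Ddx42, at 196.8 and 309.9, with 0.13 on a second probe set. A further list held 36 measured factors of the Prp19 complex, the catalytic steps and other stages of spliceosome assembly. Of these, 4, or 11.1%, were at least 1.5-fold higher and 1, or 2.78%, lower, against 9.46% and 10.1% of all measured genes. Cwc22, which brings the exon junction complex to the spliceosome, went from 71.0 to 136.4, 1.92-fold higher, and Mfap1a from 148.4 to 279.5, 1.88-fold higher. Cwc25, a factor of the first catalytic step, went from 124.6 to 74.6, 1.67-fold lower.

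Among 56 other regulators, 6, or 10.7%, were at least 1.5-fold higher and 3, or 5.36%, lower, against 9.46% and 10.1% of all measured genes. The widest differences in the 2 directions were those of Gemin4 and Gemin6, members of the SMN complex, which loads Sm rings onto snRNAs. Gemin4 went from 87.5 to 177.1, 2.02-fold higher, and Gemin6 from 198.9 to 90.3, 2.20-fold lower. Mbnl2, a muscleblind splicing regulator, went from 1248 to 2138, 1.71-fold higher, and its 4 measured probe sets all pointed up, from 0.37 to 1.11. Rbfox1, another regulator of tissue-specific exons, was dim and went from 81.5 to 44.1, 1.85-fold lower. Cirbp, like Rbm3 a cold-inducible protein, stood at 130.8 and 180.5, a log2 difference of 0.46. Dimmer probe sets of Cirbp gave -0.77 and -0.24, so that its direction is unsettled.

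**Figure D5:**
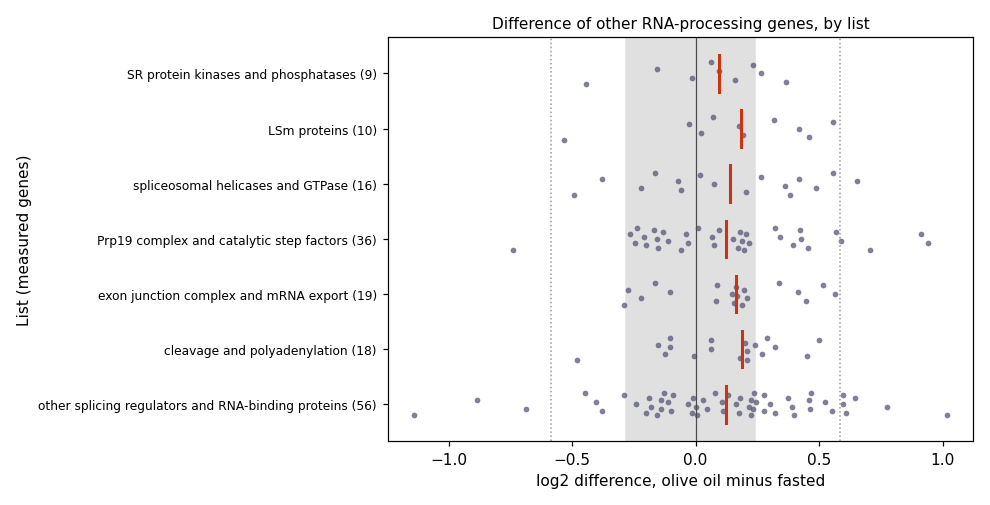
Log2 difference, olive oil minus fasted, of the 164 measured genes of 7 further RNA-processing lists (points), with list medians (red bars), 1.5-fold either way (dotted lines) and the middle 50% of all measured genes (grey band). List medians lie between 0.10 and 0.19, and the points farthest from 0 are Gemin6 at -1.14 and Gemin4 at 1.02.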

How the data were processed

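Total RNA of liver was labelled with biotin and hybridized to Affymetrix arrays, per the labels' protocols. Each array has a deposited signal intensity for every probe set, on a linear scale. The authors made these intensities with Affymetrix Expression Console, per the submitters' processing notes; its algorithm and version are not stated in the sources used here. The values carry no detection call, and the number of arrays limits the precision.

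Leaving out 57 control probe sets, signals of the other 31042 were floored at the 25th percentile, 12.8, and put on the log2 scale. Of the probe sets, 20826 were tied to 1 gene, 436 to several and 9780 to none listed. Symbols are those of the platform's annotation, updated by gene ID through RefSeq (GRCr8) for 20758 probe sets. A gene was its probe set of highest mean signal, and was measured if the mean log2 signal reached the median of all probe sets, 5.37. Differences are olive oil minus fasted, and 1.5-fold took the place of a test.

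The members and lists were chosen with earlier results of these data known. Genes named were members past 1.5-fold, the 2 brightest of each class, members whose probe sets spanned at least 1 on the log2 scale or passed 1.5-fold in opposite directions, a set of members and kinases fixed whatever their change, and up to 2 genes per direction and pathway list past 1.5-fold. Others are marked. Functions were tested on simulated data. Alternatives were other normalizations, floors, filters, folds and ways to combine probe sets. Versions were Python 3.11.15, pandas 2.3.3 with numpy 2.4.6, matplotlib 3.10.9 and, for loess, statsmodels 0.14.6.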

Additional observations from a re-analysis of the deposited data

How the results depend on the processing

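With 1 array per group no replicate could be left out. No paired analysis was possible because each group is a single array. The number of members at least 1.5-fold higher, 9, was 5 with a filter at the 75th percentile and 1 at 2-fold, and lay between 7 and 10 under the other alternatives. The number at least 1.5-fold lower, 3, was 5 with arrays centred on their medians, 7 with no filter on dim probe sets, and 0 with a filter at the 75th percentile or at 2-fold. The share of all genes at least 1.5-fold lower moved too, from 10.1% to 12.7% with centring and 12.4% with no filter, which kept 103 members. The members' median log2 difference of 0.11 was 0.038 with arrays centred on their medians, 0.17 with a filter at the 75th percentile and 0.20 when all measured probe sets of a gene were averaged. It stayed 0.08 to 0.21 above the median of all genes under every alternative. The median of the SR class stayed between 0.35 and 0.45. Of the 12 members past 1.5-fold, none changed sign, and Srsf2, U2af1, Rbm14, Rbm20 and Rbm27 came inside 1.5-fold under at least 1 alternative. Averaging the measured probe sets of a gene instead put Srsf1, U2af2 and Rbm18 past 1.5-fold, at 0.76, 0.85 and 0.62. The cause of these moves was not tested beyond what each alternative does by construction. Signal over background could not be judged, since no detection call was available.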
